A study of Mus musculus with 99 samples.

Results

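The perineuronal net genes described here are 10 genes that encode the core proteins of the hyaluronan-based matrix of the brain. They are the lecticans aggrecan (Acan), brevican (Bcan), neurocan (Ncan) and versican (Vcan), the link proteins Hapln1, Hapln2, Hapln3 and Hapln4, tenascin-R (Tnr) and the receptor-type phosphatase Ptprz1. They were chosen by symbol, and each symbol matched 1 of the 55335 gene identifiers in the count files. All 10 passed the filter on low counts in each of the 5 regions. Their level was followed in bulk RNA of tissue punches from juvenile C57BL/6 mice of wild-type genotype and both sexes. The cortical regions were S1 (somatosensory) and PrL (prelimbic), and the others were NAc (nucleus accumbens), VBT (ventrobasal thalamus) and VTA (ventral tegmental area). In the exposed groups the dam drank fentanyl at 10 µg/ml from embryonic day 0 until weaning. In the control groups the label is water. Of 99 libraries 98 were used, in 20 groups of region, sex and treatment with 5 libraries each. S1 of water males and VTA of water males had 4, the latter because VTA water male 3, with counts for only 6333 genes, was left out by the rule for these genes. The labels give no animal, litter or exact age, so p-values measure the spread between these libraries, which may share litters. Regions may also come from the same animals, and the tests between regions treat all libraries as independent.

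Perineuronal nets are lattices of extracellular matrix that enclose the soma and proximal dendrites of certain neurons, above all parvalbumin interneurons, and that mature as critical periods close. Lecticans carry chondroitin sulfate chains, bind the hyaluronan backbone at their N-terminal end together with a link protein, and are tied to each other at their C-terminal end by tenascin-R. Ptprz1 yields both a membrane phosphatase and a secreted proteoglycan, phosphacan, which binds tenascin-R. The same families also build the loose matrix between cells and the matrix at nodes of Ranvier, so a transcript level in bulk tissue does not measure nets. In bulk samples fewer cells of a type and less RNA per cell cannot be told apart.

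The 4 link protein genes each lie beside a lectican gene, with no other gene between them in GENCODE M21 (GRCm38). Hapln3 (chr7:79115102-79131018, minus strand) ends 2 bases from the end of Acan (chr7:79053483-79115099, plus strand). Hapln2 (chr3:88021750-88027583, minus) lies 21519 bases from Bcan (chr3:87987531-88000230, minus). Hapln4 (chr8:70083457-70090862, plus) lies 2222 bases from Ncan (chr8:70093085-70120873, minus). Hapln1 (chr13:89539796-89611652, plus) lies 43659 bases from Vcan (chr13:89655312-89742509, minus). Tnr (chr1:159523769-159931729, plus) shares 443 exon bases with the antisense gene Gm38039, and whether the counting used strand is not given in the sources used here. Ptprz1 (chr6:22875502-23052916, plus) shares no exon bases with another gene. No other member shares exon bases with another gene either.

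The 250 bases before the annotated start are shown for 3 genes, Hapln2 because its level differed most between regions, and Vcan and Ptprz1 because they were called in males of NAc and VTA. The sequences are RefSeq's (GRCm38.p6), 5′ to 3′ on the strand of the gene: Hapln2 at chr3:88027512-88027761 (minus), Vcan at chr13:89742513-89742762 (minus) and Ptprz1 at chr6:22875252-22875501 (plus). The RefSeq start of Hapln2 lies inside the GENCODE gene, so 72 of its 250 bases are within the gene span given above. Capitals mark matches on either strand to the SOX motif AACAAT, the GC box GGGCGG, the TATA box TATAAA or the CCAAT box (CCAAT), none of which overlapped another.
Hapln2: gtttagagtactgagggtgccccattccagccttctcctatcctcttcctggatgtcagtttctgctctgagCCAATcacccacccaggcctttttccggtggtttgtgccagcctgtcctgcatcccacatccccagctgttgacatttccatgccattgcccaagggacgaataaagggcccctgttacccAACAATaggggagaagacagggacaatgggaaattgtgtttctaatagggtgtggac
Vcan: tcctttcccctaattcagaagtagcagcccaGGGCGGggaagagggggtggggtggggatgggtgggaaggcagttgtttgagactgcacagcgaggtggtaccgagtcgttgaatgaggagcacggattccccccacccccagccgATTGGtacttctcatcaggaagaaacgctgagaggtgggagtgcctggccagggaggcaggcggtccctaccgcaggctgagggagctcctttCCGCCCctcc
Ptprz1: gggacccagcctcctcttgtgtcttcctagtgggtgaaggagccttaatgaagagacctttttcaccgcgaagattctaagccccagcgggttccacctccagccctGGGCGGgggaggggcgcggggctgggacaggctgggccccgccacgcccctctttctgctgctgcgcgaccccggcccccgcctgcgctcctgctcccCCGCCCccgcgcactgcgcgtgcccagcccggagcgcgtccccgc
Hapln2 held 1 SOX match and 1 CCAAT match, Vcan 2 GC boxes and 1 CCAAT match, and Ptprz1 2 GC boxes. Of 32851 RefSeq windows of this length, 9.42% held the SOX motif, 32.7% the GC box, 12.4% the TATA box and 33.8% the CCAAT box. The window of Ptprz1 was 71.6% GC and that of Vcan 62.4%, against 52.4% for Hapln2 and for the median of all windows. Windows were found for 9 of the 10 genes, all but Hapln4. These matches are letters in a window and no factor was measured.

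Library totals ran from 23032078 to 52069639 counts, with a median of 36024982. Levels are given as CPM, the count scaled to the library total, and a count of 0 would allow up to 3 counts, or 0.0576 to 0.13 CPM, for counting error only. No member was near that limit in the 98 libraries. Tests between regions used TMM scaling and fitted group means, so their order of regions can depart from that of mean CPM. Among neighbours in the CPM order, the fit had the opposite sign for Acan (VTA minus VBT -0.14) and Bcan (S1 minus NAc 0.03). It also did for Tnr (VBT minus NAc 0.04) and Ptprz1 (VBT minus S1 0.004), on the log2 scale. None of these differences was called. Markers of the region named in the label were present in every library. Several libraries also held markers of other tissue: VBT water female 2 had choroid plexus markers summing to 4561 CPM against at most 657 in the other VBT libraries, PrL water male 3 had olfactory bulb markers at 358 CPM and PrL water female 5 at 191, and cortex markers ran from 56.0 to 1442 CPM within NAc.

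Among the lecticans, brevican and neurocan made up nearly all of the transcripts, and Ncan was highest relative to Bcan in PrL and lowest in VTA. Bcan, the most compact lectican and a product mainly of glia, was highest in VBT (380 ± 25.5 CPM, SD, n = 20) and VTA (323 ± 47.9, n = 19). It was lower in NAc (251 ± 28.1, n = 20) and S1 (244 ± 27.4, n = 19), which did not differ from each other (adjusted p = 0.543, edgeR), and lowest in PrL (191 ± 25.0, n = 20). Ncan, a lectican most abundant in the developing forebrain, ran the other way, with 381 ± 29.6 CPM in PrL, 336 ± 21.01 in S1, 318 ± 24.3 in NAc, 262 ± 26.9 in VBT and 151 ± 16.8 in VTA. The lowest PrL library for Ncan, at 341 CPM, stood above the highest VTA library, at 188 CPM. In the fit of all regions Ncan was lower in VTA than in PrL by 1.47 on the log2 scale (SE 0.039, adjusted p = 3.49e-52), and Bcan was higher by 0.63 (SE 0.042, adjusted p = 1.45e-24).

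Expressed per exon length, which allows genes to be compared, Bcan supplied 76.0% ± 1.84 (SD) of lectican transcripts in VTA, 70.1% ± 2.56 in VBT, 56.2% ± 3.30 in NAc, 54.9% ± 2.42 in S1 and 46.0% ± 1.78 in PrL. Ncan supplied 20.3% ± 1.64 in VTA and 52.0% ± 1.81 in PrL, and PrL was the only region of the 5 where its mean share was above that of Bcan. No VTA library had a Ncan share above 23.7% and no PrL library had one below 49.3%. Vcan supplied 1.61% to 2.88% and Acan 0.38% to 1.04% of lectican transcripts on average over the libraries of a region. These shares move with the exon length assumed, since without length Ncan exceeded Bcan in S1, PrL and NAc.

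**Figure D1:**
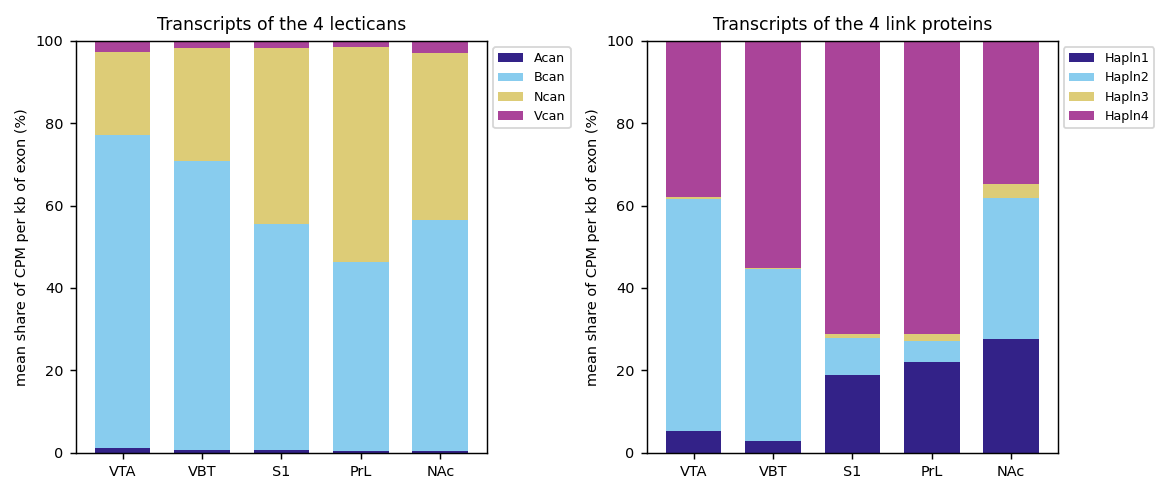
Mean share of each gene in the transcripts of the 4 lecticans (left) and the 4 link proteins (right), as CPM per kilobase of exon, by region; each bar sums to 100%. The Bcan segment shrinks from 76.0% in VTA to 46.0% in PrL, and Hapln2 from 56.4% in VTA to 4.96% in PrL.

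Aggrecan and versican were the minor lecticans, and both had their own order of regions. Acan, the lectican regarded as the hallmark of nets around parvalbumin neurons, was at 8.07 ± 5.53 CPM in VTA and 7.68 ± 1.83 in VBT, followed by S1 (5.53 ± 1.76), PrL (3.15 ± 1.69) and NAc (3.08 ± 0.772). VTA and VBT did not differ, and the sign in the fit was opposite to that of mean CPM (VTA minus VBT was -0.14, SE 0.153, adjusted p = 0.421, edgeR). PrL and NAc did not differ either (adjusted p = 0.652), and VBT was above NAc by 1.43 on the log2 scale (SE 0.156, adjusted p = 1.32e-13). The spread of Acan in VTA was wide, from 3.03 to 26.7 CPM with a median of 6.36. Vcan, a large lectican of oligodendrocyte precursors and of nodes of Ranvier, was highest in NAc (45.5 ± 9.15 CPM), then VTA (39.5 ± 4.02), VBT (34.6 ± 6.47), S1 (26.1 ± 3.97) and PrL (23.9 ± 5.18). Neither VTA and VBT nor S1 and PrL differed for Vcan (adjusted p = 0.719 and 0.146), while NAc was above PrL by 0.83 (PrL minus NAc was -0.83, SE 0.062, adjusted p = 2.44e-21). These means pool both treatments. In water libraries alone Vcan was at 50.1 ± 7.60 CPM in NAc and 37.7 ± 4.67 in VTA (VTA minus NAc was -0.43, SE 0.107, adjusted p = 0.000524, edgeR), and in fentanyl libraries, where the regions were not tested, it was at 40.9 ± 8.50 in NAc and 41.2 ± 2.56 in VTA. Fentanyl males were at 34.4 CPM in NAc, below the 39.9 of VTA and the 34.9 of VBT.

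Hapln2 and Hapln4 differed between regions more than any lectican, while Hapln3, with a 1.78-fold span of region means, differed less than each of them. Hapln2, which stabilises the matrix at nodes of Ranvier, was at 86.1 ± 13.6 CPM in VBT and 80.3 ± 19.9 in VTA, which did not differ (adjusted p = 0.141), at 15.01 ± 2.12 in NAc, 8.62 ± 6.26 in S1 and 3.05 ± 1.81 in PrL. The highest PrL library, at 7.23 CPM, stood below the lowest VTA library, at 41.1 CPM, and the lowest VBT library, at 63.2 CPM. The region means spanned 28.2-fold, and in the fit VBT was above PrL by 4.86 on the log2 scale (SE 0.182, adjusted p = 7.89e-40). Summed over 7 oligodendrocyte markers, none of them at 0 in any library, the level moved with Hapln2: 429 to 1745 CPM in PrL, 1345 to 7909 in S1, 3372 to 5595 in NAc, 7975 to 19113 in VTA and 10937 to 27494 in VBT. Their part in the order of Hapln2 was not tested. In 4 of the 5 regions the library with the highest sum also had the most Hapln2, as in S1, where fentanyl female 5 had 31.3 CPM against 2.96 to 14.0 in the other libraries. In PrL the highest sum was that of fentanyl female 1 and the highest Hapln2 level that of water female 5.

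Hapln4, the link protein that pairs with brevican in nets of the brainstem, had its peak in VBT at 188 ± 21.7 CPM. It was at 111 ± 18.9 in S1, 88.7 ± 23.8 in VTA, 72.9 ± 13.1 in PrL and 26.7 ± 10.8 in NAc, and the VTA and PrL levels did not differ (adjusted p = 0.286). VBT was above NAc by 2.97 on the log2 scale (SE 0.123, adjusted p = 4.44e-37), and the lowest VBT library, 140.0 CPM, stood far above the highest NAc library, 52.6 CPM. Hapln1, the cartilage-type link protein whose rise marks net formation in cortex, was highest in the 2 cortical regions, with 43.5 ± 5.74 CPM in S1 and 33.6 ± 4.81 in PrL, then 30.2 ± 3.33 in NAc. It was lower, at 18.2 ± 6.69 in VTA and 15.3 ± 3.9998 in VBT, which did not differ (adjusted p = 0.608), and VBT was below S1 by 1.48 on the log2 scale (VBT minus S1 was -1.48, SE 0.095, adjusted p = 3.42e-25). Hapln3 was the lowest of the 10 genes by CPM, between 1.19 ± 0.331 in VTA and 2.11 ± 0.564 in NAc. Per kilobase of exon Acan was lower in PrL (0.42 against 0.46) and NAc (0.41 against 0.60). None of the neighbours in the order of Hapln3 from PrL (1.61 ± 0.852) through VBT and S1 to VTA differed (adjusted p between 0.0600 and 0.516). Regions further apart in it did. VTA minus PrL was -0.54 (SE 0.131, adjusted p = 0.00014, edgeR), S1 minus PrL -0.35 (SE 0.130, 0.0175) and VTA minus VBT -0.28 (SE 0.131, 0.04998).

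Per exon length, the link protein pool of S1 and PrL was 71.1% Hapln4 in both, that of VTA was 56.4% Hapln2, and that of NAc was divided among Hapln4 (34.9% ± 9.19), Hapln2 (34.1% ± 5.23) and Hapln1 (27.7% ± 4.61). In VBT the pool was 55.1% Hapln4 and 41.6% Hapln2, with 2.97% Hapln1. The order within the pool depended on the length scaling in VTA and NAc: in counts without length, Hapln4 made up 46.9% and Hapln2 42.8% in VTA, and Hapln1 led in NAc with 41.6%, against 34.9% Hapln4 and 20.6% Hapln2.

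Tenascin-R and Ptprz1 were the most even members. Tnr, which cross-links lecticans, was at 303 ± 29.3 CPM in PrL, 275 ± 25.7 in S1, 232 ± 24.1 in VTA, 222 ± 37.1 in NAc and 211 ± 22.5 in VBT. VTA and NAc did not differ, nor did NAc and VBT (adjusted p = 0.737 and 0.437), and the means spanned 1.44-fold. Ptprz1 was at 350 ± 45.2 CPM in VTA, 305 ± 53.3 in S1, 295 ± 17.7 in VBT, 288 ± 42.4 in NAc and 252 ± 46.7 in PrL, a 1.39-fold span, and it differed between neighbours in the order only for VBT and NAc. Regions further apart in that order could differ. VTA minus PrL was 0.33 (SE 0.050, adjusted p = 6.24e-09, edgeR) and VTA minus NAc 0.23 (SE 0.050, 2.8e-05). In water libraries alone these were 0.13 (adjusted p = 0.119) and 0.08 (0.341). That order pools the treatments, and in water libraries alone Ptprz1 was highest in S1 (341 ± 42.2 CPM), then VTA (325 ± 39.8), NAc (304 ± 39.5), VBT (299 ± 11.9) and PrL (277 ± 53.9). VTA minus S1 was then -0.17 (SE 0.076, adjusted p = 0.0502, edgeR), and VBT and NAc did not differ (adjusted p = 0.148). In fentanyl libraries Ptprz1 was at 373 ± 38.2 CPM in VTA and 273 ± 40.4 in S1. Of the 10 members, 6 kept the pooled order of region means in water libraries (all but Hapln1, Hapln2, Tnr and Ptprz1) and 6 in fentanyl libraries (all but Acan, Vcan, Hapln3 and Ptprz1). Over all genes the median span of region means was 1.70-fold, with 37.6% of genes at 2-fold or more and 14.996% at 4-fold or more. Of the 10 members, 5 reached 2-fold (Hapln2, Hapln4, Hapln1, Acan and Ncan) and 2 reached 4-fold (Hapln2 and Hapln4).

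**Figure D2:**
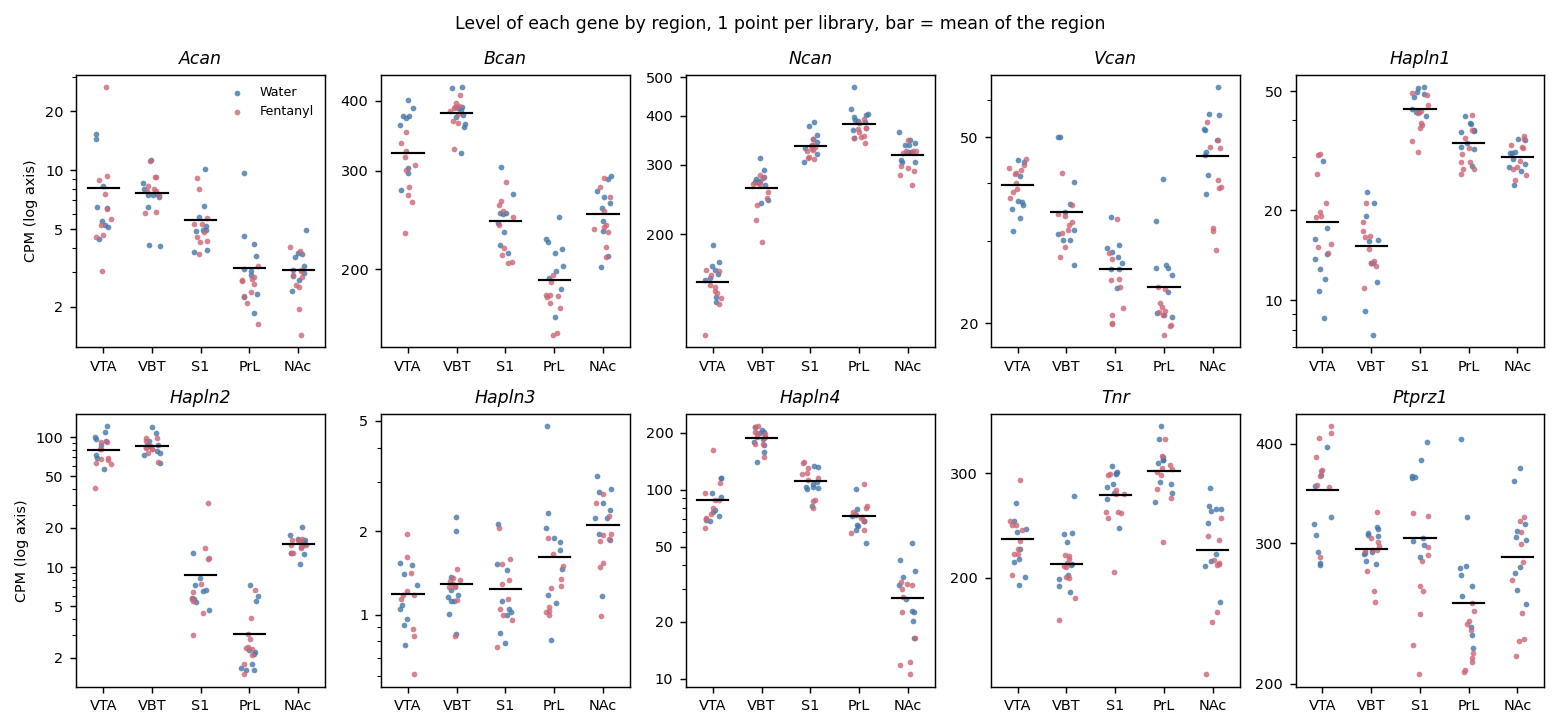
CPM (log axis) of the 10 genes in the 5 regions, 1 point per library, water in blue and fentanyl in red, with a bar at the mean of the region. Hapln2 and Hapln4 span the widest range, while the points of Tnr and Ptprz1 overlap across all regions.

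At an adjusted p under 0.05 alone, 4 of 10 members differed between VTA and VBT (66.0% of all genes). There were 8 for VTA against S1 (74.0%), VBT against S1 (74.3%) and PrL against NAc (65.7%), and 9 for VTA against PrL (75.8%), VTA against NAc (75.4%), VBT against PrL (76.1%), VBT against NAc (75.9%), S1 against PrL (52.2%) and S1 against NAc (64.7%). With both treatments pooled and counted over the 10 pairs of regions at an adjusted p under 0.05 and a 2-fold difference, VBT against PrL had the most members called, 5 of 10, against 26.6% of all 22326 genes tested. Bcan was at the edge of this rule, at 1.02, and without the libraries numbered 3 it was at 0.9999 and the count was 4. VTA against PrL and VTA against NAc had 4 each, against 25.6% and 23.5% of all genes. VTA against S1 and VBT against NAc had 3 each (24.5% and 26.0%), and VBT against S1 and PrL against NAc had 2 each (24.6% and 15.8%). VTA against VBT (16.7%), S1 against PrL (6.42%) and S1 against NAc (15.4%) had 1 each. Hapln2 was among the calls of every pair but VTA against VBT and S1 against NAc, and Hapln4 was the member called in those 2. Versican, tenascin-R, Ptprz1 and Hapln3 were called at this size in none of the 10 pairs. In water libraries alone Bcan was at 0.92 in VBT against PrL and not called at this size (26.0% of all genes called). Hapln1 was at -1.05 in VTA against NAc (SE 0.148, adjusted p = 5.47e-08, edgeR) and joined the calls there (22.1%). VTA against NAc then had the most members called, and Hapln2 was also called in S1 against NAc (-1.05, 14.7%).

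Across the means of the 20 groups, neighbouring lectican and link protein genes did not share one pattern. Bcan and Hapln2 had Pearson's r = 0.94 of log2(CPM + 1), whereas Acan and Hapln3 had r = -0.59, Vcan and Hapln1 r = -0.42, and Ncan and Hapln4 r = -0.20. Within groups, over the deviations of 98 libraries from their group means, the same pairs had r = 0.43, 0.09, 0.29 and 0.16. The other 12 lectican and link protein pairs ranged from -0.30 to 0.54 within groups, so the adjoining pairs lay inside that range. The highest within-group value of all 45 pairs was that of Vcan and Ptprz1, r = 0.56. The points share libraries, depth and region, and genes of 1 library are not independent, so these are descriptions.

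The genes with the most similar levels over the 20 group means, among 12076 genes with at least 5 CPM, were read off for each member. Hapln2 was nearest to Gjb1, the connexin of myelinating glia (r = 0.999), then Prr5l and Tmem63a (both 0.998). Bcan was nearest to Hepacam, a cell adhesion protein of astrocytes, Llgl1 and Metrn (each r = 0.981). Ncan was nearest to Neurl1b (0.984), Pcdh1 (0.982) and Ncoa6 (0.979), and Hapln4 to Ankrd34c, Nudt4 (both 0.977) and Tmem108 (0.973). Hapln1 was nearest to Dclre1c (0.972), Spred1 (0.970) and Phf20l1 (0.969), and Vcan to Svil (0.958), Mdga2 (0.957) and Zkscan7 (0.942). Acan was nearest to Apol8 (0.936), Kcng4 (0.934) and the neurofilament gene Nefm (0.932). Tnr was nearest to Zcchc2 (0.932), Ptprk (0.927) and Atp11b (0.921), Ptprz1 to Mon2 (0.916), Rnf213 (0.896) and Sec24a (0.888), and Hapln3 to Pknox1 (0.874), Kctd12 (0.863) and Arid1a (0.859).

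Perinatal fentanyl was then compared with water within each region and sex. In NAc of males, Vcan and Ptprz1 were lower after fentanyl, and these were 2 of 10 members called against 0.662% of all 19480 genes tested. The members were chosen with earlier results of these data known, so the comparison of these shares is only a description. For Vcan the water males were at 46.5, 51.7, 64.0, 52.1 and 45.9 CPM and the fentanyl males at 40.5, 28.7, 31.5, 32.04 and 39.1 CPM. The groups did not overlap, and the means were 52.0 ± 7.28 and 34.4 ± 5.14 CPM (SD, n = 5 each). The log2 fold change was -0.57 (SE 0.125, adjusted p = 0.0404, edgeR). For Ptprz1 the water males were at 311, 374, 360, 317 and 275 CPM and the fentanyl males at 245, 227, 217, 227 and 270.1 CPM. These groups did not overlap either, with means of 327 ± 39.6 and 237 ± 21.05 CPM and a log2 fold change of -0.43 (SE 0.0851, adjusted p = 0.0343). They were the 2 of 10 members whose male groups did not overlap, against 3.5% of all genes.

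Of the remaining members in NAc of males, 4 had an unadjusted p under 0.05, as 17.6% of all genes did, without passing the adjustment: Tnr at -0.38 (adjusted p = 0.104), Acan at -0.53 (0.193), Hapln3 at -0.55 (0.205) and Ncan at -0.14 (0.266). The median log2 fold change of the 10 members was -0.30, against -0.01 over all genes tested. In NAc of females no member was called by edgeR, DESeq2 or limma-voom, 0.0% of all genes were called by edgeR, and 0 members had an unadjusted p under 0.05 by edgeR, against 9.03% of all genes. Female levels overlapped, with Vcan at 48.1 ± 8.20 CPM after water and 47.5 ± 5.42 after fentanyl, and Ptprz1 at 280.5 ± 24.1 and 307 ± 15.9 CPM. The smallest p in females was that of Hapln4, at -0.60 (SE 0.345, adjusted p = 0.587). The difference between the male and the female effect was -0.56 for Ptprz1 (SE 0.120, adjusted p = 0.0811) and -0.54 for Vcan (SE 0.176, adjusted p = 0.153), so a difference between the sexes was not called by edgeR, and 2 members had an unadjusted p under 0.05, against 15.2% of all genes. DESeq2 called it for Ptprz1 (adjusted p = 0.00519) and for 2.37% of all genes, and limma-voom for both (0.0145 and 0.0432) and for 6.72% of all genes.

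Both calls in NAc depended on single libraries. Leaving out 1 library at a time kept the Vcan call in 9 of 20 fits (-0.64 to -0.48, adjusted p up to 0.129) and the Ptprz1 call in 14 of 20 (-0.49 to -0.38, up to 0.115). Both were lost without fentanyl male 2 or 3 or water male 1, 2, 3 or 4, and Vcan also without fentanyl male 4, fentanyl female 1, 2 or 3 or water female 4. Without the filter on low counts Vcan was at an adjusted p of 0.0578. Exon length moved with treatment here: the Spearman rho across genes between exon length and a library's deviation from the region mean was -0.175 to 0.286 in water males and -0.369 to -0.003 in fentanyl males. Vcan and Ptprz1 lie at percentiles 97.0 and 96.9 of exon length among genes. With a length trend removed from each library, Vcan was at -0.40 (adjusted p = 0.0435) and Ptprz1 at -0.26 (adjusted p = 0.0613). Cortex marker scores spread more in fentanyl males (2.78 to 5.47, as mean log2 of CPM + 1) than in water males (4.19 to 4.93), and with that score as a covariate the values were -0.54 (adjusted p = 0.0196) and -0.42 (0.0134). The 8 markers of parvalbumin interneurons summed to 794 to 889 CPM in fentanyl males and 911 to 1022 in water males, with 0 of the 8 called and 4 at an unadjusted p under 0.05 by edgeR. Those of oligodendrocyte precursors summed to 187 to 255 and 225 to 264 CPM, with 0 of 6 called and 3 at an unadjusted p under 0.05 by edgeR, which 17.6% of all genes had. Their part in the result was not tested.

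**Figure D3:**
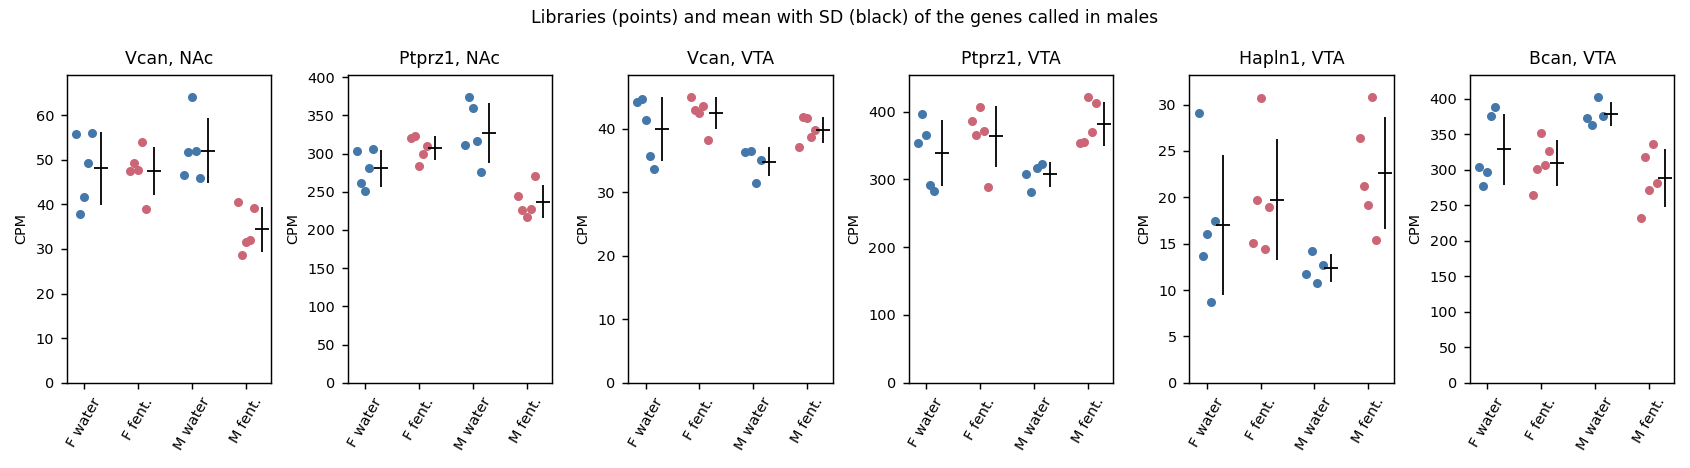
CPM of the members called in males of NAc (Vcan, Ptprz1) and VTA (Vcan, Ptprz1, Hapln1, Bcan), 1 point per library in females (F) and males (M) with water (blue) or fentanyl (red), with mean and SD in black. Vcan and Ptprz1 of NAc are lower in every fentanyl male than in every water male, and higher in VTA.

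In VTA of males 4 of 10 members were called, against 22.0% of all 19822 genes tested, so the share of members was not far above the region's very broad background. Bcan was lower after fentanyl, at 232, 318, 272, 336 and 281 CPM against 373, 363, 402 and 376 CPM in the 4 water males used. The log2 fold change was -0.36 (SE 0.111, adjusted p = 0.0264). Hapln1 was higher, at 26.4, 21.2, 19.2, 30.8 and 15.4 CPM against 11.8, 14.3, 10.8 and 12.7 CPM, with a log2 fold change of 0.91 (SE 0.307, adjusted p = 0.0419). Ptprz1 was higher, at 353, 355, 421, 370 and 413 CPM against 308, 282, 317 and 323 CPM, with 0.35 (SE 0.0970, adjusted p = 0.0147). Vcan was also higher, at 37.1, 41.9, 41.7, 38.7 and 39.9 CPM against 36.3, 36.5, 31.5 and 35.1 CPM, with 0.23 (SE 0.0787, adjusted p = 0.0423). In all 4 the groups of males did not overlap, as for 22.4% of all genes. Ncan was at -0.23 (SE 0.0819, adjusted p = 0.0542). In the average of the sexes Bcan, Vcan and Ptprz1 were called, 3 of 10 against 23.1% of all genes. These average calls were less stable for Bcan and Vcan than for Ptprz1 when 1 of the 19 libraries was left out. The Ptprz1 call was kept in 19 fits (adjusted p up to 0.0467), the Bcan call in 8 (up to 0.0744) and the Vcan call in 4 (up to 0.121). Bcan was lost without fentanyl female 1, 2 or 4, water female 4 or 5, fentanyl male 1, 3 or 5 or water male 1, 4 or 5, and Vcan was kept only without fentanyl female 5, water female 1 or 2 or water male 2. With a GC trend removed from each library none of the 3 was called, against 3.88% of all genes, so a count of 0 is near the background. Bcan was then at 0.04 (adjusted p = 0.744), Vcan at 0.05 (0.593) and Ptprz1 at 0.13 (0.178).

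Base composition moved with treatment in VTA males, and its part in the 4 calls was not tested beyond the trend removal given here. The Spearman rho across genes between GC content and a library's deviation from the region mean was 0.521 to 0.645 in the 4 water males and -0.490 to -0.103 in the 5 fentanyl males. By GC content of exons, Bcan lies at percentile 96.9 of genes, Hapln1 at 6.48, Vcan at 20.6 and Ptprz1 at 24.3. With a GC trend removed from each library none of the 10 members was called, against 3.27% of all genes, so a count of 0 is near the background. Bcan was then at 0.03 (adjusted p = 0.891), Vcan at 0.10 (0.411), Hapln1 at 0.71 (0.205) and Ptprz1 at 0.24 (0.0888), and Hapln1, Hapln4 and Ptprz1 had an unadjusted p under 0.05, against 19.3% of all genes. With an exon length trend removed Hapln1 (adjusted p = 0.0513) and Vcan (0.0892) were not called, nor were they without the filter on low counts (0.102 and 0.0818), where 9.24% of all genes were called. With VTA water male 3 kept, no member was called, against 0.216% of all genes, and Vcan was at -0.08 (adjusted p = 0.9996). Leaving out 1 of the 19 libraries at a time kept the Ptprz1 call in 19 fits (adjusted p up to 0.0444), the Bcan call in 13, Hapln1 in 10 and Vcan in 9. Bcan was lost without fentanyl male 1, 3 or 5 or water male 1, 4 or 5 (adjusted p up to 0.0778). Hapln1 was lost without fentanyl male 1, 3 or 4, any water male or fentanyl female 2 or 5 (up to 0.117), and Vcan without any fentanyl male, water male 1, 4 or 5 or fentanyl female 2 or 4 (up to 0.164).

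**Figure D4:**
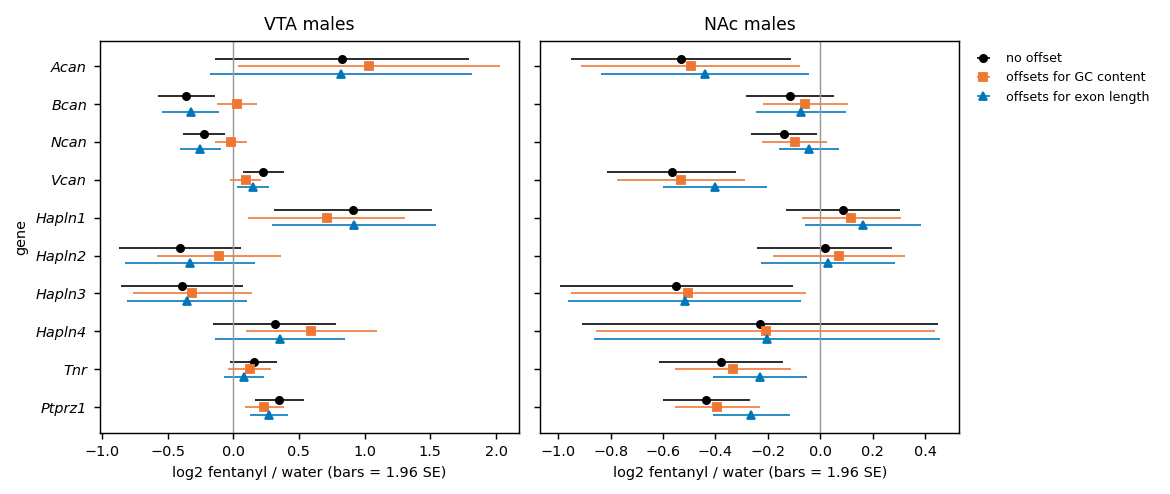
Log2 fold change of the 10 genes in males of VTA (left) and NAc (right) with no offset (circles), with a GC trend removed per library (squares) and with an exon length trend removed (triangles); bars are approximate 95% intervals drawn in the same way, from the SE alone. In VTA Bcan moves from -0.36 to 0.03 with the GC trend removed, and in NAc Ptprz1 moves from -0.43 to -0.26 with the length trend removed.

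In VTA of females no member was called by edgeR, DESeq2 or limma-voom, which called 0.0%, 0.444% and 0.0% of all genes. By edgeR 0 members had an unadjusted p under 0.05, against 12.7% of all genes. The smallest p was that of Hapln3, at 0.41 (SE 0.223, adjusted p = 0.446). For Vcan, Ptprz1, Hapln1 and Bcan the female fold changes were 0.07, 0.09, 0.19 and -0.10, each with the sign seen in males, and no difference between the sexes was called by any of the 3 tools. For that difference edgeR called 0.0% of all genes, DESeq2 0.0353% and limma-voom 2.49%. The 2 members with an unadjusted p under 0.05 for that difference in edgeR, against 11.4% of all genes, were Acan (1.69, SE 0.679, adjusted p = 0.420) and Hapln3 (-0.81, SE 0.326, adjusted p = 0.420). Acan was at 26.7 CPM in VTA fentanyl male 4 against 5.63 to 9.33 in the other 4, and the same library had Hapln4 at 162 CPM against 79.9 to 96.3 and parvalbumin interneuron markers summing to 1889 CPM against at most 1528 in any other VTA library.

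In PrL no member was called in females (0.021% of all genes called), in males (0.0%) or in the average of the sexes (0.697%) by edgeR, with 2, 4 and 6 members at an unadjusted p under 0.05, against 9.53%, 11.97% and 19.1% of all genes. Ptprz1 had the smallest p in males, at -0.34 (SE 0.102, adjusted p = 0.320). Its water males were at 258, 265, 405, 281 and 280 CPM and its fentanyl males at 238, 218, 213, 239 and 247 CPM, groups that did not overlap, as for 2.0% of all genes. The highest of these, water male 3, was the library with olfactory bulb markers. Without it the log2 fold change was -0.23 (adjusted p = 0.613), and without it and water female 5 it was -0.22 (adjusted p = 0.398). Among females Bcan had the smallest p, at -0.20 (SE 0.0774, adjusted p = 0.430), with 203, 223, 164, 185 and 226 CPM after water and 180, 178, 152, 170 and 174 CPM after fentanyl, which overlapped. In the average of the sexes Bcan was at -0.21 (SE 0.0547, adjusted p = 0.0661) and Ptprz1 at -0.25 (SE 0.0721, adjusted p = 0.0861). DESeq2 called both (0.0161 and 0.0307) and 4.08% of all genes, and limma-voom neither, with 1.72% of all genes called. With a GC trend removed edgeR called both (0.0323 and 0.0495) and 3.88% of all genes. Without water female 3, Bcan was called (adjusted p = 0.0254).

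In S1 no member was called in females (0.142% of all genes called), males (0.0%) or the average (1.03%) by edgeR, with 3, 1 and 3 members at an unadjusted p under 0.05, against 13.9%, 7.15% and 15.8% of all genes. Ptprz1 had the smallest p in both sexes. Its S1 levels were 305, 364, 363, 363 and 302 CPM in water females, 245, 205, 328, 290.4 and 261 in fentanyl females, 289, 299, 382 and 402 in water males and 297, 325, 224, 285 and 266 in fentanyl males, and the groups of each sex overlapped. Groups without overlap, which 0 members had in S1, were found for 4.22% of all genes in females and 1.72% in males. The log2 fold changes were -0.36 in females (SE 0.116, adjusted p = 0.163), -0.27 in males (SE 0.122, adjusted p = 0.695) and -0.32 in the average (SE 0.0843, adjusted p = 0.0643). DESeq2 and limma-voom called the average (adjusted p = 0.0128 and 0.0496), with 3.27% and 0.937% of all genes, as did edgeR without fentanyl female 3 (0.0253) or water male 1 (0.0415). Ptprz1 thus had a negative fold change in males of 4 regions (S1, PrL, NAc and, at -0.13, VBT) and a positive one in VTA, and within a single sex it passed the test only in NAc and VTA males.

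In VBT no member was called in either sex or in the average by edgeR, DESeq2 or limma-voom. Of all genes, edgeR and limma-voom called 0.0%, and DESeq2 0.164% in females, 0.275% in males and 0.00528% in the average. By edgeR 0 members in females, 1 in males and 0 in the average had an unadjusted p under 0.05, against 7.86%, 8.70% and 8.49% of all genes. The smallest p was that of Acan in females (0.37, SE 0.194, adjusted p = 0.670) and of Ncan in males (-0.22, SE 0.0964, adjusted p = 0.523). All 10 members had groups that overlapped in both sexes, against 2.06% of all genes without overlap in females and 0.967% in males.

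**Figure D5:**
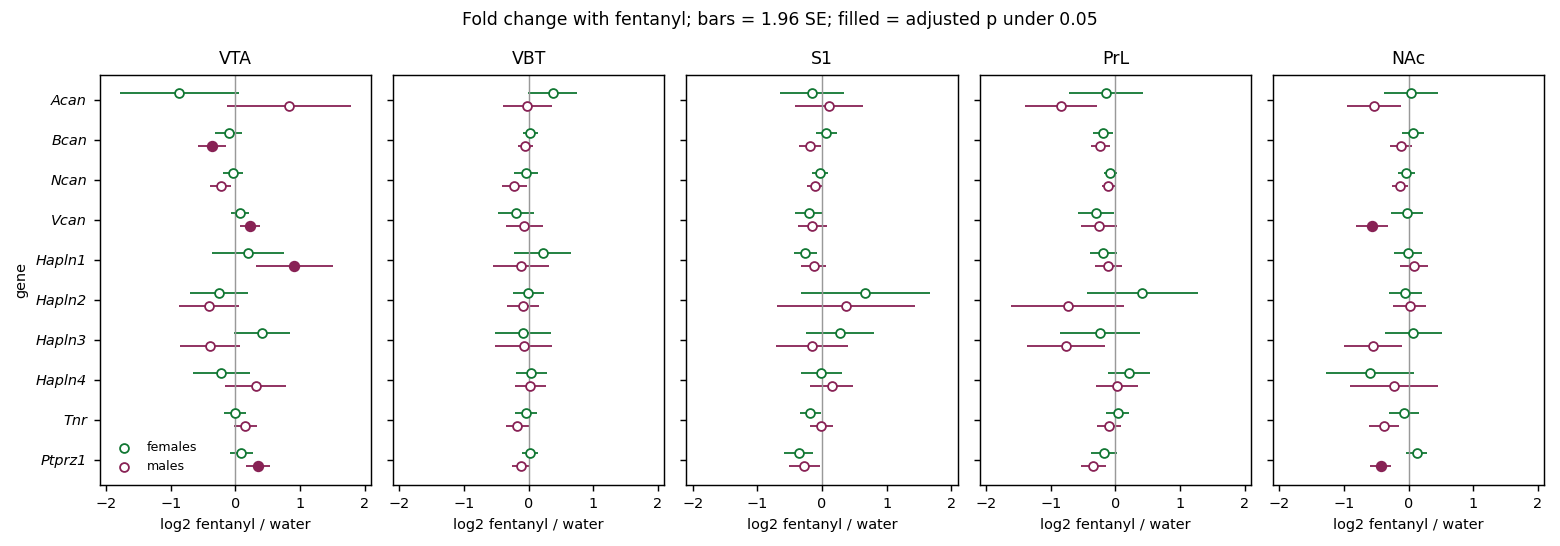
Log2 fold change with fentanyl in each region, for females (green) and males (purple), with bars for an approximate 95% interval (normal, from the SE, with no allowance for residual degrees of freedom, so a bar can miss 0 where the unadjusted p is above 0.05); filled circles passed an adjusted p of 0.05 in edgeR. The 4 filled points of VTA and the 2 of NAc are all from males, and Vcan and Ptprz1 of males lie on opposite sides of 0 in these regions.

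Males and females did not differ by the test in any member or region when averaged over treatment. edgeR called 0 members in each region, against 0.0709% of all genes in S1, 0.0786% in PrL, 0.077% in NAc, 0.0858% in VTA and 0.132% in VBT, with 1 to 3 members at an unadjusted p under 0.05 against 3.92% to 13.1% of all genes. DESeq2 and limma-voom called 0 members as well. In S1, PrL, VTA and VBT, DESeq2 called 0.0944% to 1.36% of all genes and limma-voom 0.0786% to 2.38%. The difference with the smallest p was that of Hapln1 in S1, 0.18 higher in males (SE 0.0681, adjusted p = 0.765).

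The other genes of the net pathway were taken from 5 lists. In males of VTA, 7 of 20 tested enzymes of chondroitin sulfate synthesis were called (2 higher, 5 lower), 5 of 11 ligands and receptors of nets (2 higher, 3 lower) and 2 of 9 other matrix genes (both lower), against 22.0% of all genes. None of 9 hyaluronan genes and none of 12 proteases and inhibitors was called there, with 1 of each at an unadjusted p under 0.05, against 34.7% of all genes. Those with the smallest p were Ptprs (-0.47, SE 0.0786, adjusted p = 0.00218) and Ptprf (-0.32, SE 0.0688, 0.00444), phosphatase receptors of the LAR family, Mdk (-0.56, SE 0.126, 0.00521), the growth factor midkine that binds Ptprz1, and Csgalnact2 (0.42, SE 0.0956, 0.00530), which starts chondroitin chains. With a GC trend removed 0 genes of the 5 lists were called in VTA males, against 3.27% of all genes, and these 4 were at -0.10, -0.01, -0.28 and 0.17. In the other 4 regions 0 genes of these lists were called in either sex by edgeR, NAc of males included, where 3 of 20 chondroitin enzymes, 3 of 11 ligands and receptors, 2 of 12 proteases and inhibitors, 2 of 9 hyaluronan genes and 2 of 9 other matrix genes had an unadjusted p under 0.05, against 17.6% of all genes.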

How the data were processed

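Bulk RNA of 5 brain regions was sequenced from SMART-Seq v4 libraries made from 10 ng of RNA. The authors deposited raw counts per gene for each library, made with HTSeq on GRCm38 per the submitters' processing notes; the aligner, annotation release and strand setting are not given in the sources used here. Identifiers were named with GENCODE M21. Counts were filtered (filterByExpr), scaled by TMM and fitted per region with edgeR 4.0.16 (robust quasi-likelihood, a mean for each sex and treatment; R 4.3.3), and in 1 fit of all groups for the regions. Adjusted p-values are Benjamini-Hochberg over all genes tested, with a threshold of 0.05, and SE was derived from the F statistic. CPM used the total over genes. Rows that name no gene stayed out of the totals; reads outside exons were 9.99% to 18.0% of a library. Alternatives were DESeq2 1.42.0, limma-voom (limma 3.58.1), other scalings, no filter, a replicate block, spline offsets for GC content and exon length, covariates and leaving out each library. The fits were run on simulated counts with known changes. These were drawn independently, without GC or length trends of libraries or shared litters, so the simulation does not test such effects. Python 3.11.15, pandas 2.3.3, numpy 2.4.6 and matplotlib 3.10.9 made summaries and figures. All 10 members are named, with the 3 nearest genes of each and the 4 pathway genes of smallest p. The members and lists were chosen with earlier results of these data known. 1 gene of the oligodendrocyte marker list is not reported here and was left out of its sum.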

Additional observations from a re-analysis of the deposited data

Results flagged for a closer look

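In 14 of 200 values of a gene in a group, 1 library stood apart from the rest of its group by Dixon's criterion; chance flags about 1 in 20 groups, or 10 here. Acan was high in VTA fentanyl male 4 (26.7 CPM, the others 5.63 to 9.33), VBT water male 3 (11.3, others 7.26 to 8.01) and S1 water female 4 (6.54, others 4.87 to 5.18). Hapln4 was high in the same VTA fentanyl male 4 (162 CPM, others 79.9 to 96.3) and in VTA fentanyl female 3 (109, others 62.9 to 74.0). PrL water male 3, the library with olfactory bulb markers, was high for Ncan (473 CPM, others 385 to 404) and Ptprz1 (405, others 258 to 281). PrL water female 5, also with olfactory bulb markers, was high for Vcan (40.8 CPM, others 20.9 to 26.3) and Hapln2 (7.23, others 1.60 to 2.21). Vcan was high in VBT fentanyl male 5 (42.0 CPM, others 31.2 to 34.3). Hapln3 was high in VBT water female 2, the library with choroid plexus markers (1.99 CPM, others 1.004 to 1.17), and in S1 fentanyl male 2 (2.05, others 0.767 to 1.14). Tnr was low in VBT fentanyl female 4 (185 CPM, others 208 to 215) and in PrL fentanyl female 1 (229.7, others 301 to 321). The part of the marker signals in these values was not tested.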

How the results depend on the processing

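Percentages in parentheses are the share of all genes called in the same fit. The number of members called in VTA males, 4 (22.0%), was 5 with DESeq2 (25.4%) and 6 with limma-voom (33.1%), and that in NAc males, 2 (0.662%), was 3 with each (4.74% and 8.07%). In VTA males it became 2 with no filter on low counts (9.24%) and 0 with GC offsets (3.27%), with GC and length offsets together (2.71%) or with VTA water male 3 kept (0.216%), and 1 to 5 without 1 library. In the VTA average, 3 (23.1%), it became 0 in the last 3 of these settings (3.88%, 3.5% and 0.309%) and 1 to 4 without 1 library. The count in the VTA average was 4 with DESeq2 (26.1%) and with limma-voom (27.2%). Bcan reversed to 0.0277 (GC offsets) and 0.0199 (both offsets) in VTA males and to 0.0424 and 0.0294 in the average, and Vcan to -0.0794 and -0.0067 with water male 3 kept. In NAc males the count was 1 with no filter (0.213%), length offsets (2.11%) or both offsets (3.19%), and 0 to 2 without 1 library. Counts of 0 became 1 with DESeq2 (3.27%) and limma-voom (0.937%, against 1.03% in edgeR) for the S1 average (0 to 1 without 1 library), 2 with DESeq2 (4.08%) or GC offsets (3.88%) and 1 with both offsets (3.43%) for the PrL average (0.697% in edgeR, 0 to 1 without 1 library), 1 with limma-voom (1.27%) for the NAc average, and 1 with DESeq2 (2.37%), 2 with limma-voom (6.72%) and 1 with GC offsets (0.672%) for the NAc sex difference (0 to 1 without 1 library, with 1 without fentanyl female 5, water female 3 or fentanyl male 5). Members 2-fold apart rose from 1 to 2 with limma-voom for VTA against VBT (18.1%), and for S1 against NAc with limma-voom (15.6%), with water libraries alone (14.7%), or without replicate 2 (15.6%, range 1 to 2). With water libraries alone VBT against PrL also lost Bcan (0.92, 26.0%), and VTA against NAc gained Hapln1 (-1.05, 22.1%). Without length, Ncan made up 29.0%, 38.3%, 55.0%, 63.7% and 51.6% of lectican counts in VTA, VBT, S1, PrL and NAc, Bcan 61.7%, 55.5%, 39.8%, 31.8% and 40.6%, Hapln1 9.68%, 5.27%, 26.6%, 30.4% and 41.6% of link protein counts, and Hapln4 46.9%, 64.7% and 65.3% in VTA, VBT and PrL. With the replicate number as a block the NAc male count was 0, with 0.0103% of all genes called against 0.662% (Vcan -0.57, adjusted p = 0.0755; Ptprz1 -0.44, adjusted p = 0.0663; edgeR) and Hapln1 in VTA males was not called (adjusted p = 0.0806). The labels do not say what the replicate numbers stand for. Same-numbered libraries of a region had deviations correlated above 0.1 in 38 of 144 pairs (median -0.0078). Those of the same sex and treatment in different regions did so in 70 of 192 pairs (median 0.0489). Libraries with different numbers were not compared, so these values cannot decide whether the numbers pair the samples. The offsets for GC and length together, the GC offsets for pathway genes and the cortex score covariate were chosen after seeing the data. The causes of these changes were not tested.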
